A study of Mus musculus with 3 samples.

Results

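The cells described here were barcodes with at least 1 UMI (unique molecular identifier, the count of 1 captured RNA molecule) of Pax3 and at least 1 UMI of Tfap2a, and with no UMI of Meox1, Tcf15, Tbx6, T, Foxa2 or Kdr, which mark somites, presomitic mesoderm, primitive streak, endoderm with axial mesoderm, and endothelium. There were 188 such Pax3+ Tfap2a+ cells among 22168 barcodes that passed quality control (QC), 83 of 6129 in embryo 1, 62 of 8116 in embryo 2 and 43 of 7923 in embryo 3. They came from scRNA-seq of 3 wild-type (WT) mouse embryos of a mixed C57BL/6 x 129 SvEv background at embryonic day 8, picked at 0 to 1 somites, in a study of the left–right organizer (LRO). Each whole embryo, freed of extraembryonic tissue, was dissociated and sequenced as 1 library. All samples were untreated and of 1 genotype, so every comparison below is between classes of cells within the same 3 embryos, and the tissue that a class came from was not recorded.

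The neural plate border is the strip of ectoderm that lies between the neural plate, the future brain and spinal cord, and the surface ectoderm, the future epidermis. It later gives rise to the neural crest and, in the head, to the cranial placodes. BMP, Wnt and FGF signals act together in setting it up, and transcription factors of the Pax3/7, Msx, Zic, Tfap2 and Dlx families are its usual markers. Pax3 encodes a paired-box factor that is also made in the dorsal neural tube and in somites. Tfap2a encodes AP-2 alpha, which is made in the border, in neural crest and in surface ectoderm.

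The cells were chosen by their UMIs of Pax3, Tfap2a and the excluded genes, so the levels of these genes are a description. Summed over the chosen cells of an embryo, Pax3 was at 52.3, 89.4 and 60.1 CPM (UMIs of the gene per 1000000 UMIs) in embryos 1, 2 and 3, and Tfap2a was at 62, 75.7 and 65.6 CPM. Most cells sat close to the limit of the rule, with a median of 1 Pax3 UMI per cell in each embryo and a highest value of 7, 8 and 6. The median of Tfap2a was 2, 1 and 1 UMIs. Exactly 1 UMI of each gene was held by 25, 21 and 18 cells, while 20, 6 and 7 cells had 2 or more of both. A further 134, 97 and 103 barcodes had both genes and were left out because they held a UMI of an excluded gene. Just outside the rule on the other side were 52, 100 and 66 cells with Pax3 and Sox2, no Tfap2a UMI and none of the excluded genes, in which Dlx5 was at 23.1, 27.9 and 39.6 CPM and Msx1 at 69.3, 111 and 99.7 CPM.

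The Pax3+ Tfap2a+ cells made up 1.35% of QC barcodes in embryo 1 (exact 95% Clopper-Pearson interval 1.08 to 1.68), 0.764% in embryo 2 (0.586 to 0.978) and 0.543% in embryo 3 (0.393 to 0.730), or 0.887% ± 0.42 (SD, n = 3). These intervals cover counting error only. A rule that asks for 2 captured molecules takes more of the deeper cells. When every cell was thinned to 5000 UMIs before the rule was applied, 6, 11 and 3 cells were left, or 0.0986% (0.0362 to 0.214), 0.138% (0.0688 to 0.246) and 0.0381% (0.00787 to 0.111). These intervals overlapped, so at equal depth the order of the embryos could not be told. Embryo 1 was the deepest library, with a median of 26705 UMIs and 5146 genes per QC barcode against 14461 UMIs and 3734.5 genes in embryo 2 and 16242 UMIs and 4017 genes in embryo 3. The chosen cells had medians of 28287, 18631 and 23934 UMIs, above the median of their own library each time, and their summed depth was 2677124, 1308428 and 1081959 UMIs. UMIs of both genes were also found in cells that should lack them. A Pax3 UMI was found in 0.875% and a Tfap2a UMI in 0.875% of 343 erythroid cells, at a median depth of 17264 UMIs, against 10.2% and 8.42% of all other QC barcodes. The erythroid cells were 304 of embryo 2, 39 of embryo 3 and none of embryo 1, so they give no such background for embryo 1. Extraembryonic endoderm cells, which came from all 3 embryos (310, 1285 and 979 cells, median depth 17615 UMIs), had a Pax3 UMI in 3.3% and a Tfap2a UMI in 2.41%. Whether these UMIs came from free RNA or from doublets was not tested.

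The other label markers of the border differed from each other in these cells. Msx1, a homeobox factor induced by BMP, had a UMI in 62.2% of them and in 13.7% of erythroid cells, at 119, 164 and 122 CPM. All other QC barcodes stood at 95.9, 112 and 118 CPM of Msx1, so the lowest sum of the Pax3+ Tfap2a+ cells lay just above the highest of the others, and the difference of 0.30 ± 0.14 (log2, SE) did not pass edgeR's test (adjusted p = 0.243) although it did with the embryo as a block (0.000598). Zic1, a zinc-finger factor of the dorsal neural tube, had 0.374, 0 and 0 CPM, with a UMI in 0.532% of the cells against 0.382% of all other QC barcodes. The related genes Zic2 and Zic5 were present instead, with a Zic2 UMI in 67% of the cells and in 2.62% of erythroid cells. Because 1 of the 4 label markers was at background and another was no more than weakly raised, the cells are called by their rule, Pax3+ Tfap2a+, in what follows.

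The comparison classes were drawn from the same embryos. Tfap2a+ Wnt6+ cells (282, 163 and 229) had UMIs of Tfap2a and of the surface ectoderm gene Wnt6 and none of Pax3. Sox1+ Sox2+ cells (213, 165 and 156) had UMIs of both neural plate factors and none of Pax3, Tfap2a or the excluded genes. All other QC barcodes of each embryo (6046, 8054 and 7880) were the last class. UMIs were summed per embryo and class and tested with edgeR across all genes, with 3 sums against 3 and an adjusted p under 0.05 as the call. The 3 comparisons share the sums of the Pax3+ Tfap2a+ cells and are therefore not independent of each other, and p-values measure the spread among 3 embryos. The filter on counts asks for enough UMIs in as many sums as the smaller class holds, so a gene that is low in one class is tested only if it is high in the other. The counts and medians of listed genes therefore describe the genes tested, and nothing is read from them about the rest of a list.

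**Figure D1:**
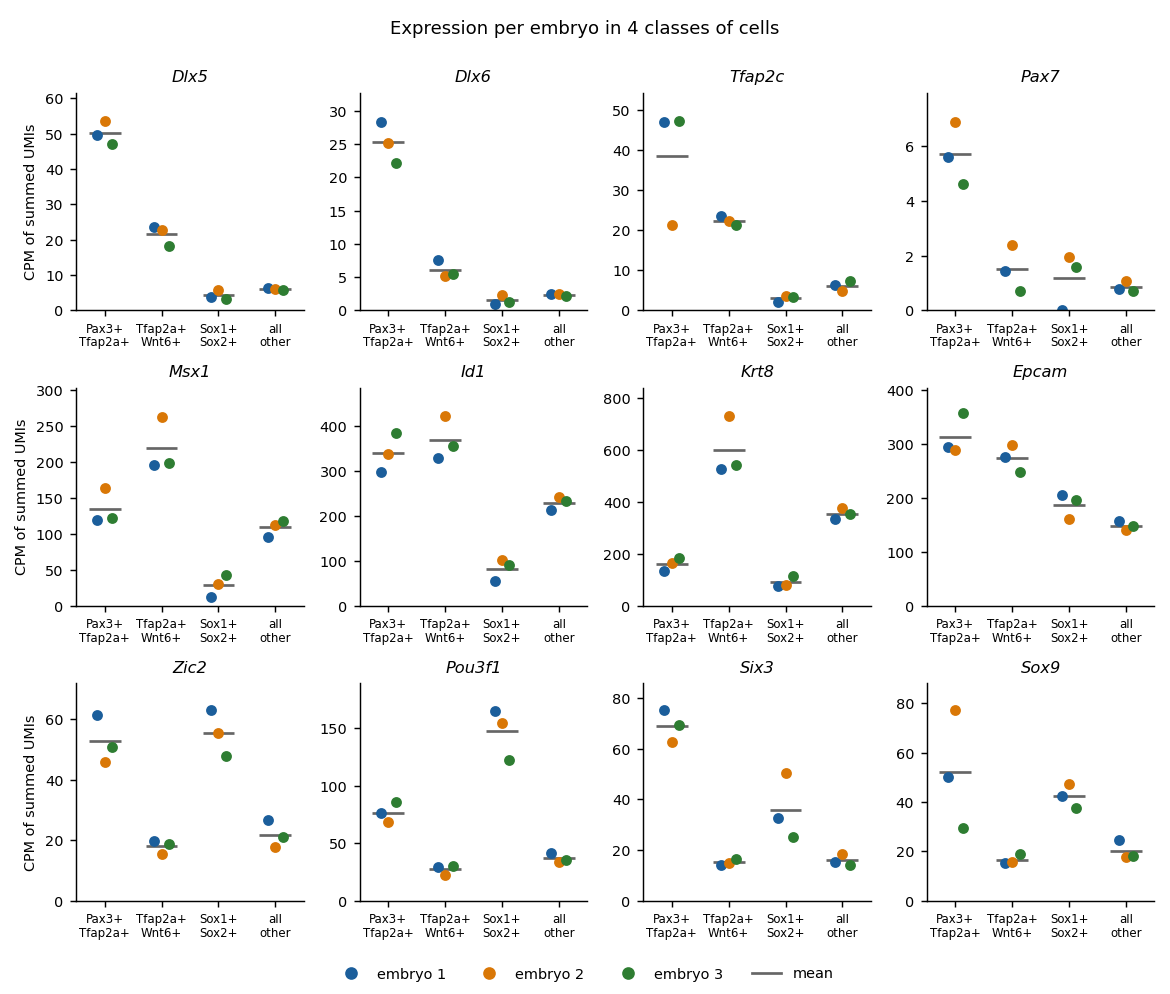
Levels of 12 genes (y axis, CPM of the UMIs summed per embryo) in the 4 classes of cells (x axis), with 1 point per embryo and a bar at the mean of the 3 embryos. Dlx5 and Dlx6 were highest in the Pax3+ Tfap2a+ cells in each embryo, whereas Msx1, Krt8, Zic2 and Pou3f1 lay between the levels of the Tfap2a+ Wnt6+ and the Sox1+ Sox2+ cells or close to 1 of them.

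Relative to Tfap2a+ Wnt6+ cells, the Pax3+ Tfap2a+ cells had more RNA of Dlx and Zic factors and of several forebrain and neural plate genes, and less of keratins. Only 23 of 83, 15 of 62 and 16 of 43 Pax3+ Tfap2a+ cells held a Wnt6 UMI, so Wnt6 was not matched. Of 10259 genes tested, 653 were called (6.37%), 193 higher (1.88%) and 460 lower (4.48%). With the embryo as a block, which fits here because both classes come from the same 3 animals, 1641 were called (16.0%). Leaving out embryo 1, 2 or 3 reduced the count to 231, 323 and 266.

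Among the 14 listed border transcription factors, 9 had counts high enough to be tested, of which 5 were higher and 2 lower, with a median log2 difference of 0.82 against 0.01 for all genes tested. The count of higher genes was 3 without embryo 1 or without embryo 3. Zic2 was at 61.3, 45.9 and 50.8 CPM against 19.8, 15.3 and 18.8 CPM in the Tfap2a+ Wnt6+ cells. The groups were far apart in all embryos, and the log2 fold change was 1.57 ± 0.15 (SE, adjusted p = 1.64e-05). Zic5 was higher as well (1.54 ± 0.15, adjusted p = 1.75e-05). Pax7, the close relative of Pax3 that marks future crest and dorsal neural tube, was low in both classes, at 5.6, 6.88 and 4.62 CPM against 1.43, 2.39 and 0.717 CPM (2.02 ± 0.45, adjusted p = 0.012). Msx1 was lower (-0.69 ± 0.14, adjusted p = 0.00819), with 195, 263 and 199 CPM in the Tfap2a+ Wnt6+ cells. This held for the whole class only. The Pax3+ Tfap2a+ cells with a Wnt6 UMI had Msx1 at 281, 399 and 237 CPM, above the Tfap2a+ Wnt6+ sum in each embryo. Those without Wnt6 had it at 49.1, 95.5 and 58.8 CPM. Tfap2c, which encodes AP-2 gamma, was at 47.1, 21.4 and 47.1 CPM against 23.5, 22.4 and 21.4 CPM. Embryo 2 showed no excess of it, and the call (0.82 ± 0.21, adjusted p = 0.0276) was lost without embryo 1 (adjusted p = 0.4) or embryo 3 (0.312). Without embryo 1 or 3 the call of Pax7 was also lost (0.15 and 0.11), and without embryo 3 that of Msx1 (0.102).

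Dlx5 and Dlx6, a neighbouring pair of homeobox genes of the placodes, branchial arches and border, were higher in every embryo (GRCm38, Dlx6 at chr6:6863334-6868568 on the plus strand and Dlx5 at chr6:6877805-6882085 on the minus strand). Dlx5 was at 49.7, 53.5 and 47.1 CPM against 23.7, 22.7 and 18.2 CPM, a log2 fold change of 1.23 ± 0.14 (adjusted p = 7.83e-05). Dlx6 was at 28.4, 25.2 and 22.2 CPM against 7.59, 5.25 and 5.45 CPM, a log2 fold change of 2.05 ± 0.21 (adjusted p = 2.51e-05). Neither gene had been used to choose the cells, and the lowest Pax3+ Tfap2a+ sum was well above the highest Tfap2a+ Wnt6+ sum for both. A Dlx5 UMI was found in 69.1% of the Pax3+ Tfap2a+ cells, and in 0.583% of erythroid cells. They belong to the 18 listed placode genes, of which 4 of 13 tested were higher and 1, Gata3, was lower (median log2 0.09). The preplacodal genes Six4, Eya1 and Eya2, which act together in placode precursors, averaged 21.6, 4.89 and 4.33 CPM in the Pax3+ Tfap2a+ cells.

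Several neural plate genes and genes of the anterior brain were higher. Of the 20 neural plate genes 16 were tested, 9 were higher and none was lower (median log2 0.85), and of the 16 forebrain and midbrain genes 6 had counts high enough to be tested and were called higher (median 1.90), or 5 without any 1 embryo. With the embryo as a block, where 7.3% of all genes were higher and 8.69% lower, 10 neural plate genes were higher and 1 was lower. Six3, a homeobox gene of the anterior forebrain, was at 75.1, 62.7 and 69.3 CPM against 14.1, 14.8 and 16.5 CPM (log2 fold change 2.22 ± 0.14, adjusted p = 4.68e-07). Hesx1, a repressor of the anterior neural ridge, was at 43.3, 22.2 and 35.1 CPM against 10.9, 7.64 and 8.03 CPM (1.94 ± 0.23, adjusted p = 9.23e-05). Otx2, the homeobox gene of forebrain and midbrain, was at 109, 93.2 and 117 CPM against 45.6, 27.2 and 53.1 CPM (1.33 ± 0.19, adjusted p = 0.000474). None of these groups overlapped. The Pax3+ Tfap2a+ cells with a Wnt6 UMI had Six3 at 3.73, 17.1 and 31.2 CPM and Otx2 at 41.1, 10.2 and 80.6 CPM. Six3 was thus below the Tfap2a+ Wnt6+ sum in embryo 1 and above it in embryos 2 and 3. Otx2 was below it in embryos 1 and 2 and above it in embryo 3. No test between cells matched for Wnt6 was run. Lhx5, a LIM homeobox gene of the anterior neural plate, was 2.33 ± 0.26 higher on the log2 scale (adjusted p = 5.01e-05), and Shisa2, an antagonist of Wnt and FGF receptors, and the Wnt receptor gene Fzd5 were higher by 1.88 and 1.92. Sox2, the neural progenitor factor, was at 131, 109 and 131 CPM against 64.5, 63.7 and 71.6 CPM (0.91 ± 0.12, adjusted p = 0.000205), and Pou3f1, a POU factor of the neural plate, was 1.48 ± 0.15 higher (adjusted p = 1.81e-05). Sox3, the sister gene of Sox2, was 1.17 ± 0.24 higher (adjusted p = 0.00694), a call lost without embryo 3 (adjusted p = 0.111).

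Epithelial genes split. None of the 17 surface ectoderm and epithelium genes tested (of 21) was higher and 5 were lower (median log2 -0.30). With the embryo as a block, where 7.3% of all genes were higher and 8.69% lower, 1 was higher and 6 were lower. Krt8, a keratin of simple epithelia, was at 134, 165 and 183 CPM against 529, 732 and 542 CPM, a log2 fold change of -1.91 ± 0.15 (adjusted p = 3e-06), and its partner Krt18 changed likewise (-1.74 ± 0.17, adjusted p = 1.75e-05). Krt8 in these cells was thus several times below its level in Tfap2a+ Wnt6+ cells in every embryo. By contrast Epcam, a surface protein of epithelial cells, was found in 97.9% of the Pax3+ Tfap2a+ cells (7.58% of erythroid cells) at 294, 288 and 357 CPM against 275, 298 and 247 CPM, with overlapping groups (0.21 ± 0.11, adjusted p = 0.342). Grhl2, a factor needed for epithelial junctions and neural tube closure, was at 23.2, 17.6 and 25 CPM against 25.9, 20.5 and 25 CPM (-0.12 ± 0.18, adjusted p = 0.798). Gata3, a zinc-finger factor of the non-neural ectoderm, was lower, at 13.8, 11.5 and 11.1 CPM against 39, 36 and 35.4 CPM (-1.55 ± 0.17, adjusted p = 3.51e-05).

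Of the 20 neural crest genes 17 were tested, 2 were higher and 8 lower (median log2 -0.72), and the count of lower genes was 3, 5 and 4 without embryo 1, 2 and 3. The 2 higher genes were Sox9 and Nr2f1. Sox9, an SRY-box factor that switches on early in crest and otic precursors, was at 50.1, 77.2 and 29.6 CPM against 15.3, 15.8 and 19.1 CPM (1.67 ± 0.23, adjusted p = 0.0004). Nr2f1, an orphan nuclear receptor gene of crest and brain, was at 5.98, 20.6 and 7.39 CPM against 2.23, 4.3 and 2.29 CPM (1.96 ± 0.45, adjusted p = 0.0152). Both were highest in embryo 2, and the call of Nr2f1 was lost without embryo 2 (adjusted p = 0.0789) or embryo 3 (0.131). Snai2, which encodes a repressor of epithelial genes, was at 1.12, 5.35 and 6.47 CPM against 25.1, 24.6 and 26 CPM, a log2 fold change of -2.85 ± 0.34 (adjusted p = 0.00011). The endothelin receptor gene Ednrb was lower too (-2.23 ± 0.41, adjusted p = 0.00388), and so was Ets1 (-2.43 ± 0.53, adjusted p = 0.0104), whose call was lost without any 1 of the 3 embryos (0.141, 0.0727 and 0.0505). The defining genes of migrating crest were near 0. Sox10 had no UMI in the 188 cells, which allows a share of up to 1.6% of cells with a captured Sox10 UMI and sets no limit on cells that express it. Tfap2b had 1 UMI, and Foxd3 had 10 UMIs in 7 cells, 9 of them in embryo 2.

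Promoters of the most changed genes were searched for the AP-2 motif. The motif searched was GCCNNNGGC, which reads the same on both strands, in the window from 250 bases before to 50 bases after each gene start (RefSeq, GRCm38.p6). It was present in 18.5% of the 27025 genes with a window. Of the 10 most increased genes against Tfap2a+ Wnt6+ cells it was present in 3 of the 8 with a window (Nr2f1, Fzd5 and Lmo1), and of the 10 most decreased in 3 of 8. Against all other QC barcodes it was present in 2 of 4 and 1 of 6. No test of these shares was run. The match of Nr2f1 lies before its RefSeq start but inside the first exon of the longer GENCODE M21 transcript. A match of letters describes this window and is not a measured binding site.

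Several decreases depended on what the Tfap2a+ Wnt6+ class still contained. It was chosen with no excluded genes, and 32.2% of its cells had a T UMI and 15.7% a Meox1 UMI, both of which are 0 by rule in the Pax3+ Tfap2a+ cells. The 12 markers of paraxial mesoderm include 3 excluded genes, Meox1, Tbx6 and Tcf15, so the rule fixed part of the contrast in their sums. These 3 are 0 by rule in the Pax3+ Tfap2a+ cells and averaged 16.7, 11.1 and 13.4 CPM in the Tfap2a+ Wnt6+ cells. All 12 summed to 25.4, 27.5 and 20.3 CPM in the Pax3+ Tfap2a+ cells, with 5 at 0, the 3 excluded genes among them. The sums in the Tfap2a+ Wnt6+ cells were 232, 137 and 177 CPM, where the retinoic acid enzyme gene Aldh1a2 was the most abundant. Of 7 tested 6 were lower (median log2 -2.04), or 2 without embryo 1 or 3. When the comparison class was also required to lack the 6 excluded genes (135, 97 and 114 cells), none of the 2 that could be tested was called, and Aldh1a2 went from -3.80 ± 0.36 (adjusted p = 1.05e-05) to -0.23 (0.783). Rspo3, a secreted enhancer of Wnt signalling, went from -2.56 (adjusted p = 3.69e-05) to 0.34 (0.654). The calls of Tfap2c (0.62, 0.107) and of the neural gene Irx3 (0.79 before, then 0.38, 0.0549) were lost as well. Of the 16 caudal genes 14 were tested, 1 was higher and 5 lower (10 lower with the embryo as a block, where 8.69% of all genes were lower), and against the narrower class 2 were higher and 1 lower of 11, where 3.61% of all genes were higher and 7.19% lower. The 12 markers of lateral mesoderm, none of them an excluded gene, summed to 102, 185 and 113 CPM against 340, 385 and 367 CPM in the Tfap2a+ Wnt6+ cells, with Hand1 the most abundant and none at 0 in either class. Of 9 tested 3 were lower and none higher, and 2 of 8 were lower against the narrower class. Their part in the other differences was not tested.

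The border, anterior, keratin and crest differences given above, other than those of Tfap2c and of genes that had not passed the test, kept their direction and their call against the narrower class, with 1017 genes called in all. The narrower class still required a Wnt6 UMI. It therefore cannot decide whether differences such as those of Six3, Otx2 and Msx1 hold between cells matched for Wnt6. Against the narrower class Krt8 was at -2.43, Krt18 at -2.22 and Snai2 at -3.28. Wnt4, a Wnt ligand gene, had been at 10.1, 8.41 and 10.2 CPM against 48.8, 75.9 and 45 CPM (-2.52 ± 0.25, adjusted p = 1.81e-05) and was at -3.13. Hand1, a factor of lateral and extraembryonic mesoderm with 35.5, 48.1 and 35.1 CPM against 126, 161 and 151 CPM (-1.88 ± 0.15, adjusted p = 3.82e-06), was at -2.31. Tinagl1, a secreted matrix protein gene, had 0, 1.53 and 2.77 CPM against 19.3, 21.7 and 16.5 CPM (-4.20 ± 0.48, adjusted p = 6.92e-05) and was at -4.96. Dlx5 (0.86, adjusted p = 0.00149), Dlx6 (1.91), Six3 (2.48) and Sox9 (1.80) stayed higher.

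The signalling lists were mostly unmoved or lower against Tfap2a+ Wnt6+ cells. Of the BMP genes 1 was higher and 4 lower of 15 tested. Bmp4, the ligand gene of the surface ectoderm and posterior mesoderm, was at 8.96, 22.2 and 10.2 CPM against 35.8, 48.7 and 33.6 CPM (-1.57 ± 0.27, adjusted p = 0.00202). The BMP target genes Id1 (-0.11, adjusted p = 0.703) and Id3 (0.27, adjusted p = 0.165, or 8.68e-05 with the embryo as a block) passed no such test without the block. Of the Wnt genes 2 were higher and 7 lower of 17, with the Wnt antagonist gene Sfrp1 higher by 1.41. Of the FGF genes none was higher and 4 were lower of 15. Of the cadherin and epithelial-mesenchymal transition genes 1 was higher and 7 lower of 16, of the hindbrain genes 1 and 2 of 11, of the cell cycle genes 1 and 4 of 20, of the neural tube closure genes 0 and 2 of 14 and of the AP-2 cofactor genes 0 and 0 of 4. With an embryo left out the lower genes were 1 of the FGF, 3 of the BMP and 4 to 5 of the Wnt and of the mesenchymal transition list. With the embryo as a block, where 7.3% of all genes were higher and 8.69% lower, 5 cell cycle genes were higher and 4 lower, and 2 hindbrain genes were higher and 4 lower. The block also gave 1 FGF gene as higher and 5 as lower, and 1 neural tube closure gene as higher and 3 as lower.

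**Figure D2:**
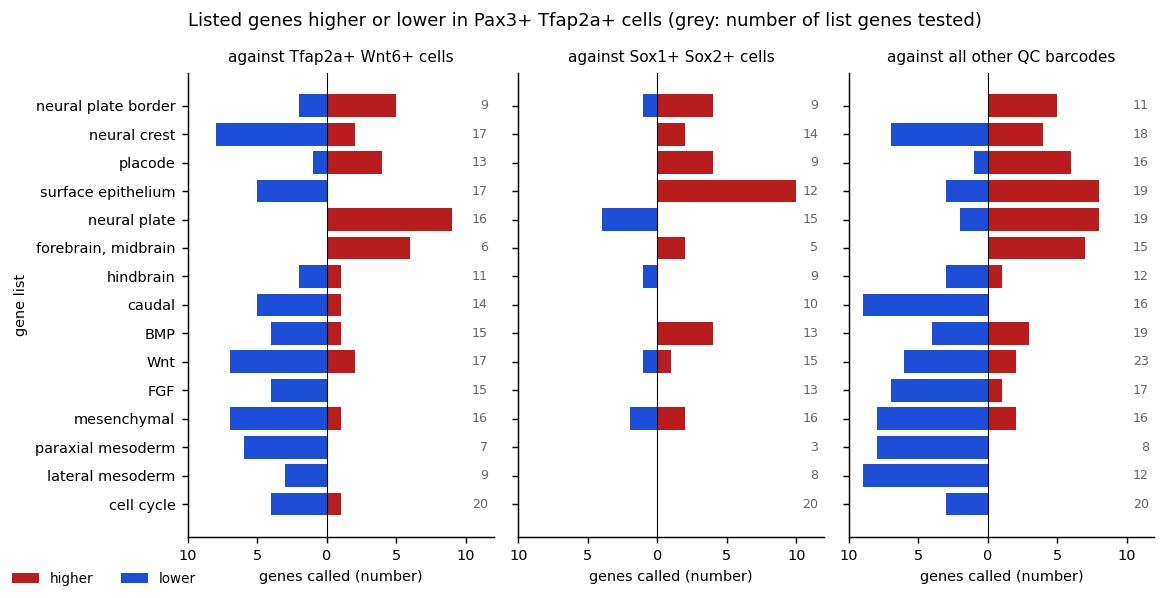
Number of genes called higher (red) or lower (blue) in the Pax3+ Tfap2a+ cells (x axis, both directions counted from 0) for 15 gene lists (y axis) in the 3 comparisons, with the number of list genes tested in grey. Surface epithelium genes were lower in 5 of 17 against Tfap2a+ Wnt6+ cells and higher in 10 of 12 against Sox1+ Sox2+ cells, where the filter on counts favours genes that are high in the Pax3+ Tfap2a+ cells.

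Summed over the class, the Pax3+ Tfap2a+ cells had more RNA of Dlx and Msx factors, of Tfap2c and of the BMP targets Id1 and Id3 than Sox1+ Sox2+ cells. The excess of Msx1 and Tfap2c was uneven within the class, as given below. Several epithelial genes were called higher too, but the filter on counts favours such calls and their number fell without embryo 2. No difference in Otx2, Zic2 or Zic5 passed the test. Of 9663 genes tested, 112 were called (1.16%), 72 higher (0.745%) and 40 lower (0.414%), or 377 (3.9%) with the embryo as a block. Without embryo 1, 2 or 3 the count was 61, 24 and 34.

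Of the border factors 4 were higher and 1 lower of 9 tested (median log2 2.35 against -0.00 for all genes), and 2 were higher without embryo 2. Members low in the Sox1+ Sox2+ cells, such as Tfap2c, passed the filter on counts through the Pax3+ Tfap2a+ cells. Nothing is therefore read from this count or median. Msx1 was at 119, 164 and 122 CPM against 12, 30.2 and 42.1 CPM in the Sox1+ Sox2+ cells (2.35 ± 0.31, adjusted p = 0.00141). The lowest sum of the Pax3+ Tfap2a+ cells was far above the highest of the others, although the call was lost without embryo 2 (adjusted p = 0.0664). Msx2, its sister gene, differed by 2.42 ± 0.32 (adjusted p = 0.00141), and Tfap2c, at 2.02, 3.49 and 3.46 CPM in the Sox1+ Sox2+ cells, by 3.81 ± 0.33 (adjusted p = 4.12e-05). Pax3+ Tfap2a+ cells with Otx2 and no Hox UMI had Msx1 at 19.7 and 36 CPM in embryos 1 and 2, within the Sox1+ Sox2+ range. Their Tfap2c was at 19.7 and 2.12 CPM. Those with Hox UMIs and no Otx2 had Msx1 at 210, 378 and 195 CPM and Tfap2c at 86.4, 56.2 and 76.1 CPM. Dlx5 was at 3.89, 5.81 and 3.14 CPM in the Sox1+ Sox2+ cells, near its level in all other QC barcodes, and differed by 3.59 ± 0.21 (adjusted p = 6.73e-07). Dlx6 differed by 4.22 ± 0.31 (adjusted p = 7e-06). Prdm1, a zinc-finger repressor of border and placode precursors, was higher (2.69 ± 0.42, adjusted p = 0.00436), a call lost without embryo 2 (0.122) or embryo 3 (0.0861). Of the 18 placode genes 9 were tested and 4 were higher (median 0.52), a count subject to the same filter. With at least 2 UMIs of Pax3 and of Tfap2a, 2 of 8 were higher. Among the 4, Gata3 was at 2.49, 0.775 and 2.2 CPM in the Sox1+ Sox2+ cells (2.61 ± 0.35, adjusted p = 0.00141, and 0.0581 without embryo 3).

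Zic2 was at 63, 55.4 and 47.8 CPM in the Sox1+ Sox2+ cells and Zic5 at 90.3, 62 and 86.7 CPM, and both ranges overlapped those of the Pax3+ Tfap2a+ cells, at 71.3, 77.2 and 74.9 CPM for Zic5. The log2 differences were -0.06 and -0.12 (adjusted p = 1 for both). Otx2 overlapped as well, at 120, 75.9 and 96.2 CPM (0.11, adjusted p = 1). Six3 was at 32.5, 50.4 and 25.1 CPM and thus lower in the Sox1+ Sox2+ cells (0.98, adjusted p = 0.0297), but the call was lost without embryo 1 (0.309) or embryo 3 (0.356) and without the cells of highest doublet score (0.0513). Pax7 passed the test only with the embryo as a block (2.67, adjusted p = 0.112 without and 0.00102 with it).

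Of the 21 surface epithelium genes 12 were tested, of which 10 were higher and none lower (median log2 1.44), but 3 were higher without embryo 2 and 6 without embryo 3. With at least 2 UMIs of Pax3 and of Tfap2a, 2 of 10 were higher. Members such as Grhl2 and Cldn4 were low in the Sox1+ Sox2+ cells and passed the filter through the Pax3+ Tfap2a+ cells, which favours higher genes in this count. Grhl2 was at 2.8, 0.775 and 2.83 CPM in the Sox1+ Sox2+ cells, lower than in the Pax3+ Tfap2a+ cells in each embryo (3.22 ± 0.33, adjusted p = 0.000132). Cldn4, a tight junction gene, was at 6.35, 6.11 and 4.62 CPM against 0.311, 0.387 and 0 CPM (adjusted p = 0.00141, and 0.0631 without embryo 2). The epithelial factor Klf5 (2.47 ± 0.32, adjusted p = 0.00119) and the basement membrane gene Npnt (3.73 ± 0.46, adjusted p = 0.000797) were higher too. Epcam was at 205, 161 and 196 CPM against 294, 288 and 357 CPM in the Pax3+ Tfap2a+ cells (0.73 ± 0.11, adjusted p = 0.00428, but 0.0859 without embryo 2 and 0.0865 without embryo 3). Krt8 was higher (0.83, adjusted p = 0.0297), and Krt18 passed the test only with the embryo as a block (0.86, adjusted p = 0.0763 without and 6.99e-13 with it). Without embryo 2 the call of Krt8 was lost (0.441), as it was without the cells of highest doublet score (0.0638).

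BMP genes were higher in 4 of 13 tested (7 with the embryo as a block, where 2.15% of all genes were higher) and lower in none (median log2 0.85). This count is subject to the same filter, which favours higher genes where members are low in the Sox1+ Sox2+ cells. Id1 was at 297, 337 and 384 CPM against 54.7, 100 and 91.1 CPM (2.08 ± 0.19, adjusted p = 5.3e-05). Id3 was at 520, 614 and 597 CPM against 252, 288 and 303 CPM (1.04 ± 0.10, adjusted p = 7.8e-05). Both Id genes, inhibitors of bHLH factors, lay well apart from the Sox1+ Sox2+ sums and close to the sums of the Tfap2a+ Wnt6+ cells, which were 329, 422 and 354 CPM for Id1 and 447, 535 and 468 CPM for Id3. The BMP pseudoreceptor gene Bambi was at 31, 24.5 and 25.9 CPM against 10.4, 11.2 and 9.43 CPM (1.42 ± 0.18, adjusted p = 0.00119, and 0.0523 without embryo 1). Kctd1, an inhibitor of AP-2 factors, was the only AP-2 cofactor gene called of 4 tested (1.29, adjusted p = 0.00488, and 0.118 without embryo 2 or 0.0654 without embryo 3).

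Of the neural plate genes none was higher and 4 were lower of 15 tested (median log2 -0.69), or 7 with the embryo as a block, where 1.75% of all genes were lower. With at least 2 UMIs of Pax3 and of Tfap2a, 1 of 13 was lower. Pou3f1 was at 75.8, 68 and 86 CPM against 165, 155 and 122 CPM (-0.95 ± 0.13, adjusted p = 0.00234), and the growth factor gene Ptn at 180, 192 and 116 CPM against 273, 401 and 262 CPM (-0.91, adjusted p = 0.0219, but 0.0994 with DESeq2). Hes3, which encodes a bHLH repressor of neural progenitors (-1.27, adjusted p = 0.0196), and Fabp7, a fatty acid binding protein gene (-1.44, adjusted p = 0.0255), were the others. All 4 calls were lost without embryo 2 (0.118 for Pou3f1, 0.12 for Ptn, 0.151 for Hes3 and 0.303 for Fabp7), and those of the last 3 also without embryo 3 (0.119, 0.219 and 0.0901). Sox3 passed only with the block (-0.72, adjusted p = 0.147 without and 4.9e-06 with it). The decreases that held without any 1 embryo included Foxb1, a forkhead gene of the neural plate and tube, at 16.1, 15.3 and 12.9 CPM against 65.8, 65.5 and 62.5 CPM (-2.10 ± 0.14, adjusted p = 2.88e-06). Ntrk2, a neurotrophin receptor gene, was at 1.49, 1.53 and 1.85 CPM against 12.9, 12 and 8.49 CPM (-2.80 ± 0.38, adjusted p = 0.00166, and 0.0595 without embryo 1 or 0.0617 without embryo 2). Gbx2, a hindbrain homeobox gene, was the border factor and hindbrain gene that was lower (-0.80, adjusted p = 0.0267, and 0.197 without embryo 2 or 0.396 without embryo 3). Of the crest genes 2 were higher of 14, both of them Id genes of the BMP list, of the Wnt genes 1 was higher and 1, Sfrp1 (-0.90, adjusted p = 0.00243, and 0.107 without embryo 2), lower of 15, and of the mesenchymal transition genes 2 were higher and 2 lower of 16, among them the repressor gene Zeb2 (-1.05, adjusted p = 0.0183, and 0.0523 without embryo 1 or 0.171 without embryo 3). No caudal (10 tested), FGF (13), cell cycle (20), paraxial (3) or lateral mesoderm (8) gene was called without the block. With it, 2 caudal genes were higher and 3 lower, 1 cell cycle gene was higher and 1 lower, 1 paraxial gene was higher, 5 crest genes were higher, and 3 Wnt genes were higher and 2 lower, while no FGF or lateral mesoderm gene was called.

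Against all other QC barcodes, a mixture of every tissue of the embryo, 967 of 15415 genes were called (6.27%), 281 higher (1.82%) and 686 lower (4.45%), and 2519 (16.3%) with the embryo as a block. DESeq2 called 1390, of which 600 were higher and 790 lower, so the higher genes were a larger part of its calls. Without embryo 1 or 2 the count was 589 and 597, but without embryo 3 it was 113. Dlx5 was at 6.33, 5.97 and 5.81 CPM in the other barcodes, far below its level in the Pax3+ Tfap2a+ cells in every embryo (3.05 ± 0.12, adjusted p = 2.58e-06), and Dlx6 differed by 3.43 ± 0.19 (adjusted p = 9.45e-06). Tfap2c (2.67 ± 0.26, adjusted p = 0.000416), Six3 (2.13 ± 0.14, adjusted p = 6.39e-05) and Sox2 (1.14 ± 0.11, adjusted p = 0.000353) were higher as well, and so was Epcam (1.07 ± 0.10, adjusted p = 0.000353). Krt8 was lower than in the mixture, which stood at 333, 379 and 353 CPM (-1.16 ± 0.12, adjusted p = 0.000548). The calls of these 7 genes held without any 1 embryo.

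Of the border factors 5 were higher and none lower of 11 tested, of the placode genes 6 and 1 of 16, of the anterior genes 7 and 0 of 15, of the neural plate genes 8 and 2 of 19, and of the surface epithelium genes 8 and 3 of 19. Of the crest genes 4 were higher and 7 lower of 18. Twist1, a bHLH factor of mesoderm and later of cranial crest, was at 10.5, 11.5 and 12 CPM against 69.2, 63.1 and 62.9 CPM (-2.55 ± 0.13, adjusted p = 6.97e-06). The lists that were lower in most tested members were paraxial mesoderm (8 of 8), endoderm and axial mesoderm (8 of 8), endothelium (4 of 7), lateral mesoderm (9 of 12), caudal genes (9 of 16) and extraembryonic endoderm (9 of 10). The rule fixed part of these decreases, since the excluded genes mark several of these tissues, T is also a gene of the primitive streak, and a Foxa2 UMI was found in 51.1% of extraembryonic endoderm cells against 15.5% of all other QC barcodes. No tested member of these lists was higher. Members low in the Pax3+ Tfap2a+ cells passed the filter on counts through the other barcodes. The filter thus favours lower genes in these counts, and nothing is read from them. Without embryo 3 the lower members were 4 of 8, 4 of 8, 1 of 7, 1 of 12, 3 of 16 and 0 of 10, in the same order. Without it the higher members were 1 of 11 border factors, 3 of 17 placode, 3 of 15 anterior, 5 of 19 neural plate and 3 of 19 surface epithelium genes. With cells of the extraembryonic endoderm and erythroid rules left out of both classes, 1 of the 10 extraembryonic endoderm genes was lower. Of the Wnt genes 2 were higher and 6 lower of 23. Wnt1, the ligand gene of the midbrain and dorsal neural folds, was at 1.12, 11.5 and 0.924 CPM against 0.14, 0.325 and 0.0667 CPM (4.52 ± 1.01, adjusted p = 0.0273). Most of its UMIs came from embryo 2, and the call was lost without embryo 2 (3.35, adjusted p = 0.122) or embryo 3 (0.14). Of the BMP genes 3 were higher and 4 lower of 19, of the FGF genes 1 and 7 of 17, of the mesenchymal transition genes 2 and 8 of 16, of the hindbrain genes 1 and 3 of 12, of the closure genes 2 and 2 of 16 and of the cell cycle genes 0 and 3 of 20. None of 9 erythroid or 5 germ cell genes was called. With the embryo as a block, where 5.36% of all genes were higher and 11.0% lower, all 9 erythroid genes were lower and 2 germ cell genes higher, and the cell cycle genes turned to 6 higher and 3 lower. The block also gave 14 of the 16 caudal genes as lower, 5 BMP genes as higher and 7 as lower, 2 FGF genes as higher and 10 as lower, and 2 hindbrain genes as higher and 4 as lower. The extraembryonic endoderm transcript Ttr was at 2.99, 179 and 24 CPM in the Pax3+ Tfap2a+ cells and at 318, 1100 and 698 CPM in the others, and 2 of the 62 cells of embryo 2 also met the rule for extraembryonic endoderm cells. Ttr therefore moved with the embryo in both classes, and its part in the other differences was not tested beyond leaving such cells out.

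The Pax3+ Tfap2a+ cells were split further by UMIs of Sox2, Wnt6, Otx2 and Hox genes, and a cell with no UMI of a gene may still express it. A Sox2 UMI without Wnt6 was found in 52, 37 and 20 cells (56.3% ± 8.6, SD of 3 embryos), both genes in 22, 10 and 15 (25.8% ± 9.4), Wnt6 alone in 1, 5 and 1 (3.86% ± 3.7) and neither in 8, 10 and 7 (14.0% ± 3.8). A Sox2 UMI was thus held by 22 of 23, 10 of 15 and 15 of 16 cells with Wnt6 in embryos 1, 2 and 3. Without Wnt6 it was held by 52 of 60, 37 of 47 and 20 of 27. The share was higher with Wnt6 in embryos 1 and 3 and lower in embryo 2. Pooled over embryos the counts were 47 of 54 and 109 of 134. In erythroid cells a Sox2 UMI was found in 3.21%, a Wnt6 UMI in 0.583% and an Otx2 UMI in 3.21%. Along the head-to-tail axis, Otx2 without any Hox UMI was found in 23, 24 and 9 cells, Hox UMIs without Otx2 in 33, 23 and 17, both in 26, 12 and 16, and neither in 1, 3 and 1. The cells with both were deeper, with a median of 35353 UMIs against 21343.5 for Otx2 alone and 23678 for Hox alone, and a deeper cell has more chances of a UMI of either.

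**Figure D3:**
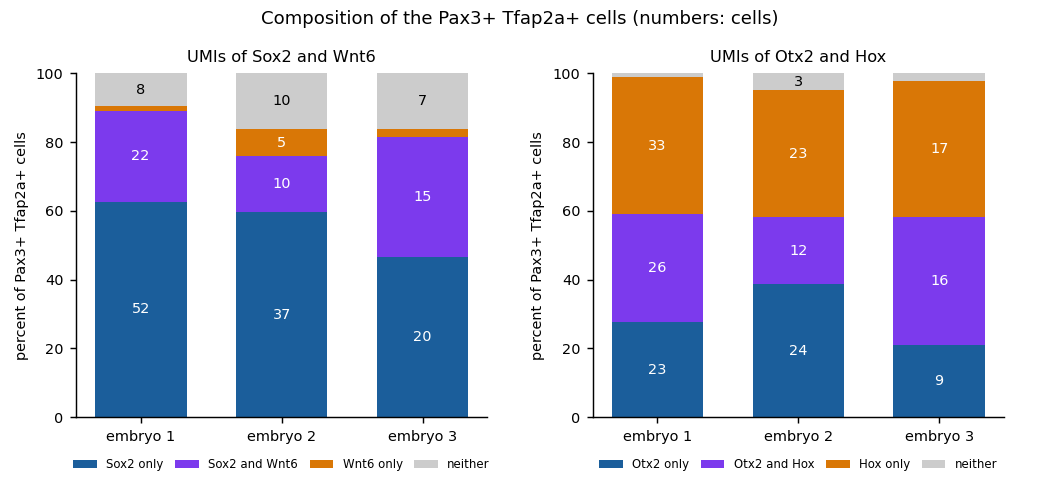
Share of the Pax3+ Tfap2a+ cells of each embryo (y axis, percent) by UMIs of Sox2 and Wnt6 (left) and of Otx2 and Hox genes (right), with numbers of cells in the bars. Cells with Wnt6 alone were 1, 5 and 1, and Otx2 without Hox and Hox without Otx2 were both common in all 3 embryos.

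Cells with Otx2 and no Hox UMI, called Otx2+ here, were compared with cells with Hox UMIs and no Otx2, called Hox+. The 9 Otx2+ cells of embryo 3 were below the minimum of 10 cells per sum and were left out, so that 2 sums faced 3. Otx2 and the Hox genes chose the classes and are not results. Of 5597 genes tested, 153 were called (2.73%), 65 higher in the Otx2+ cells (1.16%) and 88 higher in the Hox+ cells (1.57%). Leaving out embryo 1 reduced the count to 75 and leaving out embryo 3 to 101. Without embryo 1 or 2 a single Otx2+ sum remains, which is assumed to vary like the others.

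Among the genes called higher in the Otx2+ cells were the forebrain genes Six3 and Hesx1. Six3 was at 168 and 99.5 CPM in embryos 1 and 2 against 0, 17.9 and 6.09 CPM in the Hox+ cells (4.61 ± 0.47, adjusted p = 1.13e-07, but 0.529 with DESeq2). Hesx1 was at 115 and 29.6 CPM, and the Hox+ cells had it only in embryo 2, at 2.55 CPM (adjusted p = 7.65e-07), but with embryo 1 left out the difference did not pass (0.656). Shisa2 was at 112 and 86.8 CPM against 0.993, 7.66 and 0 CPM (adjusted p = 3.03e-09). Sox9 was at 109 and 140 CPM against 20.8, 23 and 12.2 CPM (2.65 ± 0.28, adjusted p = 1.59e-07), so Sox9 was several times higher in the Otx2+ cells in both embryos. Pax2, a paired-box gene of the midbrain and otic placode (2.51, adjusted p = 0.00119), and Cyp26a1, which degrades retinoic acid (2.58, adjusted p = 0.000277), were higher, and so were Irx3 (1.09, adjusted p = 0.000303), Pou3f1 (1.89, adjusted p = 0.00024), Zic2 (1.20, adjusted p = 0.00873) and Sox2 (0.84, adjusted p = 0.0328). Without embryo 1 the calls of Pax2 (0.451), Cyp26a1 (0.137), Pou3f1 (0.381), Zic2 (0.307) and Sox2 (0.995) were lost, and DESeq2 called neither Zic2 (0.183) nor Sox2 (0.493). Zic5 differed by 0.67 (adjusted p = 0.17, or 0.0285 with the embryo as a block). Of the 16 anterior genes 3 had counts high enough to be tested, and these were called higher (2 with DESeq2, and 1 of 4 without embryo 1). As Six3 and Hesx1 were near 0 in the Hox+ cells, they passed the filter on counts through the Otx2+ cells, and nothing is read from that count.

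The caudal genes Cdx1 and Cdx2 and the border factors Msx1 and Tfap2c were called higher in the Hox+ cells. Cdx1 was at 243, 286 and 207 CPM against 6.58 and 2.12 CPM (-5.66 ± 0.35, adjusted p = 5.88e-12), and Cdx2 at 136, 169 and 131 CPM against 4.94 and 2.12 CPM (-5.20 ± 0.39, adjusted p = 2.52e-10). Both are homeobox activators of posterior identity, and their groups were separated by more than the range within either. Msx1 was at 210, 378 and 195 CPM against 19.7 and 36 CPM (-3.23 ± 0.31, adjusted p = 3.44e-08). Tfap2c was at 86.4, 56.2 and 76.1 CPM against 19.7 and 2.12 CPM (-2.63 ± 0.41, adjusted p = 8.55e-05). Dlx5 did not follow them, with 52.6, 84.3 and 54.8 CPM against 54.3 and 55 CPM (-0.17 ± 0.27, adjusted p = 0.975), nor did Epcam (-0.27, adjusted p = 0.687) or Krt18 (-0.16, adjusted p = 0.924). Of the 7 border factors tested, 1 was higher and 3 lower in the Otx2+ cells, the third being Gbx2 (-3.20, adjusted p = 2.2e-05). Nkx1-2, a caudal epiblast gene (-3.51), the Wnt target Axin2 (-1.59, adjusted p = 0.000982), the retinoic acid binding protein gene Crabp1 and the cyclin gene Ccnd2 (-1.72, adjusted p = 9.98e-07) were higher in the Hox+ cells, as were the cell junction gene Ppl (-5.39) and Tshz1, a zinc-finger gene of the trunk (-5.01). Wnt8a, a posterior Wnt ligand gene, was at 58.6, 33.2 and 36.5 CPM against 0 and 2.12 CPM (adjusted p = 7.25e-06, and 0.148 without embryo 1). Sox3 went with the Hox+ cells (-1.20, adjusted p = 0.0149), unlike Sox2, but its call was lost without any 1 embryo (0.0613, 0.12 and 0.1).

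Of the 16 caudal genes 5 were tested, of which 1, Cyp26a1, was higher and 4 were lower. Cdx1, Cdx2 and Wnt8a were near 0 in the Otx2+ cells and passed the filter through the Hox+ cells, so nothing is read from that count either. The other lists gave 1 higher and 3 lower of 8 Wnt genes, 3 and 1 of 9 neural plate genes, 1 and 1 of 3 hindbrain genes, 1 and 1 of 6 crest genes, 0 and 2 of 19 cell cycle genes and 0 and 0 of 9 surface epithelium genes. Markers of extraembryonic endoderm moved with this split. Of the 3 tested, Apoa1 and Rbp4 were higher in the Otx2+ cells, with Apoa1 at 11.5 and 224 CPM against 11.9, 48.5 and 21.3 CPM. The 10 listed markers summed to 161 and 1237 CPM in the Otx2+ cells and to 218, 294 and 256 CPM in the Hox+ cells, with Apoe the most abundant and none at 0 in either. The excess was in embryo 2 alone, neither call held without embryo 2 or embryo 3 or with DESeq2, and its part in the other differences was not tested. Spink1 was the only member tested of the 10 markers of endoderm and axial mesoderm. It was also called higher in the Otx2+ cells, by 2.43 on the log2 scale, with and without the embryo as a block. The sums of Spink1 in the Otx2+ and the Hox+ cells overlapped, however. The part of Spink1-bearing cells in the other differences was not tested.

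**Figure D4:**
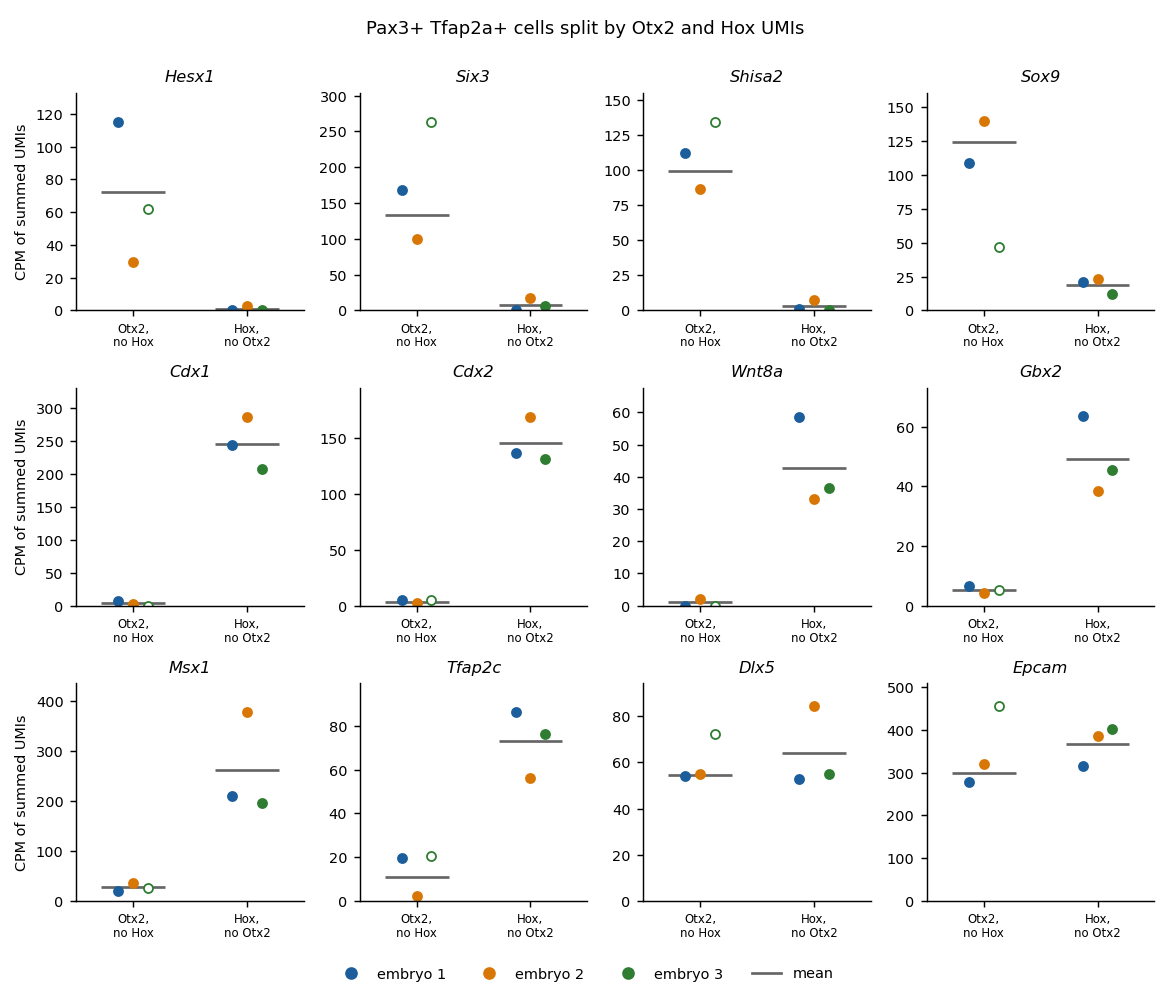
Levels of 12 genes (y axis, CPM of the UMIs summed per embryo) in Pax3+ Tfap2a+ cells with Otx2 and no Hox UMI and in those with Hox UMIs and no Otx2 (x axis), with 1 point per embryo and a bar at the mean of the filled points. Open points are the 9 cells of embryo 3 that were left out of the test. Hesx1, Six3, Shisa2 and Sox9 were higher on the left, Cdx1, Cdx2, Wnt8a, Gbx2, Msx1 and Tfap2c on the right, and Dlx5 and Epcam overlapped.

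The last split was by Wnt6, with 23, 15 and 16 cells that had a UMI of it and 60, 47 and 27 that had none, a comparison added after the class sizes were seen. These are the same cells as in the Otx2 and Hox split, so the results of both are not independent. Of 6651 genes tested, 70 were called (1.05%), 53 higher with Wnt6 (0.797%) and 17 lower (0.256%), or 125 (1.88%) with the embryo as a block, and 36 without embryo 1. Msx1 was at 281, 399 and 237 CPM with Wnt6 against 49.1, 95.5 and 58.8 CPM without it (2.18 ± 0.21, adjusted p = 7.89e-07). Tfap2c was at 84.6, 54.6 and 83.2 CPM against 31, 11.8 and 27.2 CPM (1.67 ± 0.27, adjusted p = 0.000806, and 0.0517 without embryo 3). In both genes every sum with Wnt6 was above every sum without it. Klf5 (2.16, adjusted p = 0.000599, and 0.364 without embryo 1), Npnt (2.83, adjusted p = 0.00475, and 0.12 without embryo 1), Ppl (2.44, adjusted p = 0.000109) and Grhl2 (1.36, adjusted p = 0.0142, but 0.122 with DESeq2, 0.403 without embryo 1 and 0.0972 without embryo 2) were higher with Wnt6.

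Cdx1 was at 256, 270 and 133 CPM with Wnt6 against 85.9, 54.2 and 77.4 CPM (1.59, adjusted p = 6.2e-05), and Cdx2 differed by 1.55 (adjusted p = 0.000109). The genes Six3, Otx2 and Shisa2 went the other way. Six3 was at 3.73, 17.1 and 31.2 CPM against 106, 75.8 and 90.3 CPM (-2.70, adjusted p = 0.000105, but 0.0844 with DESeq2), Otx2 at 41.1, 10.2 and 80.6 CPM against 138, 117 and 138 CPM (-1.53, adjusted p = 0.00175, and 0.166 without embryo 1 or 0.903 with DESeq2), and Shisa2 differed by -2.04 (adjusted p = 0.000348). Hsd11b2, a steroid dehydrogenase gene, was at 1.24, 0 and 0 CPM against 14.9, 24.6 and 24.4 CPM (adjusted p = 0.00175). Keratin differences were small, at 0.50 for Krt8 (adjusted p = 0.229) and 0.45 for Krt18 (0.501), and passed only with the embryo as a block (0.0106 and 0.00964), while Epcam (0.23, adjusted p = 0.905) and Sox3 (0.48, 0.908) did not pass. Of the border factors 2 were higher of 7 tested, of the surface epithelium genes 1 of 9 (4 with the block, where 1.28% of all genes were higher), of the caudal genes 2 were higher and 1 lower of 8, of the neural plate genes 0 and 3 of 10, and of the anterior genes 0 and 3 of 4. Those 4 were the tested ones of 16 listed, and members low with Wnt6, such as Six3, passed the filter through the cells without it, so nothing is read from that count. Without embryo 1 none of 9 surface epithelium and none of 9 neural plate genes was called, and 1 of 4 anterior genes was lower. Without embryo 2 none of 9 surface epithelium genes was called and 1 of 9 neural plate genes was lower. DESeq2 called no surface epithelium or anterior gene. Without embryo 3 a single border factor of 7 was higher. Markers of extraembryonic endoderm summed to 214, 249 and 257 CPM with Wnt6 and to 191, 1108 and 371 CPM without it, with Apoe the most abundant in both and Afp and Apoa2 at 0 with Wnt6. Of 4 tested none was called, though 3 were lower with the block, where 0.601% of all genes were lower, and 3 of 5 without embryo 1, and their part in the other differences was not tested.

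**Figure D5:**
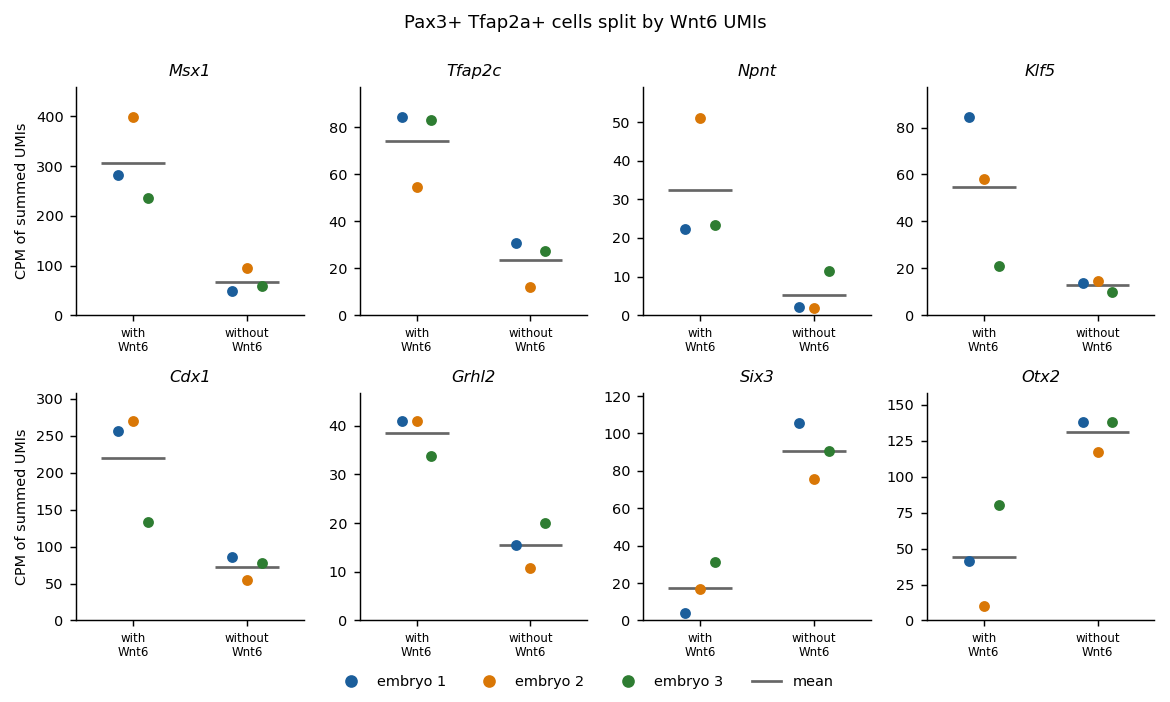
Levels of 8 genes (y axis, CPM of the UMIs summed per embryo) in Pax3+ Tfap2a+ cells with and without a Wnt6 UMI (x axis), with 1 point per embryo and a bar at the mean of the 3 embryos. In each panel the groups were separate in all 3 embryos, with Six3 and Otx2 higher without Wnt6 and the other 6 genes higher with it.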

How the data were processed

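The authors made the deposited UMI counts per gene and barcode with Cell Ranger 3.1.0 on mm10, 1 filtered matrix per embryo with 31054 features. Barcodes with 1500 to 8500 genes (7500 in embryo 2) and at most 10% mitochondrial UMIs were kept (6129, 8116 and 7923), holding 195477519, 145760007 and 166042809 UMIs, and the clusters that the authors removed afterwards were not recreated. Scrublet marked 1 barcode per library, so doublets were treated only by leaving out the top 6% of scores, which held 2, 2 and 1 of the cells. The libraries shared 40, 41 and 37 barcodes with the other libraries, 1 of them a Pax3+ Tfap2a+ cell of embryo 1. Counts were summed per embryo and class and tested with edgeR 4.0.16 (R 4.3.3, TMM, filterByExpr, quasi-likelihood, no block, Benjamini-Hochberg), a pipeline tested on simulated data. Sums of the same embryo come from the same animal, and their deviations from the class means correlated at 0.395, 0.297 and 0.206 (Tfap2a+ Wnt6+), 0.424, 0.247 and 0.190 (Sox1+ Sox2+), 0.199, 0.218 and 0.0961 (all others), 0.137 and 0.135 (Otx2 and Hox) and 0.195, 0.0927 and 0.106 (Wnt6). DESeq2 1.42.0, another scaling, no filter, the block, each embryo left out, stricter and thinned rules were alternatives. Erythroid cells had at least 100 UMIs of Hbb-bh1 and a UMI of a further gene that is not reported here, and extraembryonic endoderm cells at least 30 of Ttr and 10 of Apoa1.

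Genes of the rules are described without a test and are left out of the counts of calls. Named genes were, per list, up to 4 called with the largest change and up to 2 not called with the highest level, and the 10 largest changes each way at 10 CPM or more. Outside that rule, Tfap2c, Otx2, Grhl2, Sox9, Zic2, Zic5 and Pax7 in some comparisons were chosen after their values were seen. The members of the class and the gene lists were chosen with earlier results of these data known.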

Additional observations from a re-analysis of the deposited data

How the results depend on the processing

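The number of genes called depended strongly on the fit and the depth, and the cause was not tested except where fewer cells or embryos entered. Against Tfap2a+ Wnt6+ cells, the 653 calls became 982 without a filter on low counts, 1641 with the embryo as a block, 231 to 323 with an embryo left out, 124 with at least 2 UMIs of Pax3 and Tfap2a, 34 with the rule applied to cells thinned to 5000 UMIs, 235 with thinned sums of the same classes, and 1017 against the class without excluded genes. Against Sox1+ Sox2+ cells, the 112 calls became 275 without the filter, 377 with the block, 24 to 61 with an embryo left out, 31 with 2 UMIs, 5 with the thinned rule and 37 with thinned sums. Against all other QC barcodes, the 967 calls became 2519 with the block, 113 to 597 with an embryo left out, 99 with 2 UMIs, 13 with the thinned rule and 265 with thinned sums. The Otx2 and Hox split gave 71 calls with DESeq2, 223 with the block, 228 without the filter and 75 to 117 with an embryo left out, in place of 153, and the Wnt6 split 128 without the filter, 125 with the block and 36 to 67 with an embryo left out, in place of 70. The share of the cells, 0.887%, was 0.0915% after thinning, 0.163% with 2 UMIs, 2.45% without excluded genes and 0.653% to 1.06% with an embryo left out. Thinned sums, the Wnt6 split, the sum of 9 cells and the removal of other cell types were chosen after seeing the data.

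Of 1727 recomputed values of named genes, 1530 kept direction and side of the threshold, 167 lost the call, 17 gained it and 13 changed sign, none of the last with a call. Against Tfap2a+ Wnt6+ cells these were Irx3 (-0.29) and Epcam (-0.0010) under the thinned rule, Epcam (-0.12) and Rspo3 (0.34) without excluded genes, and Grhl2 with 2 UMIs (0.17). Against Sox1+ Sox2+ cells they were Otx2 with 2 UMIs (-0.063), the thinned rule (-0.83) and thinned sums (-0.018), Zic2 without embryo 2 (0.034, with -0.13 at the lower end of the range over embryos left out) and Zic5 without embryo 1 (0.031, the lower end -0.28). Against all other barcodes they were Zic2 (-0.39) and Nr2f1 (-8.13) under the thinned rule, which left 6, 11 and 3 cells, and in the Otx2 and Hox split Dlx5 without embryo 2 (0.028, the lower end -0.34). The comparison of cells with Sox2 alone against Wnt6 alone was not run, since 1, 5 and 1 cells had Wnt6 alone. Rules that need a captured UMI miss cells of the same kind, so the classes are incomplete at this depth.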
